A study of Mus musculus with 2 samples.

Results

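The genes described here are 8 genes of the YAP branch of the Hippo pathway, chosen by name: the coactivator genes Yap1 and Wwtr1 (which encodes TAZ), the transcription factor genes Tead1, Tead2, Tead3 and Tead4, and the target genes Ctgf and Cyr61. They are 8 of the 22367 protein-coding genes of the mm9 annotation used. Open chromatin at these genes was followed in ATAC-seq peak lists, in which a transposase marks accessible DNA, from 2 libraries of enteroids, the epithelial cultures grown from ileal crypts of 4-month-old C57Bl6/129sv mice. Control enteroids were labelled WT and, in the study's methods, carried the Taf4 lox/lox alleles without a Cre. Taf4-inactivated enteroids carried the same alleles with VilCreER T2, a tamoxifen-activated recombinase driven by the villin promoter and so by the gut epithelium. Taf4 is a component of TFIID, the complex that helps RNA polymerase II start transcription at promoters. Both cultures received 1 µM 4-hydroxytamoxifen for 3 days. There was 1 library per genotype, so nothing below carries a replicate error or a test, and each difference describes these 2 libraries. How many animals or cultures stood behind a library was not given in the sources used here.

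For every gene, a peak within 1 kb of any of its annotated start sites was taken as a promoter peak. Any other peak over the gene or within 50 kb on each side was taken as a distal peak, whatever other genes lay there. By this rule the 8 genes held 106 peaks in the control list (11 promoter and 95 distal) and 83 in the Taf4-inactivated list (9 promoter and 74 distal). Each peak has a fold enrichment over the background of its own library. Because those backgrounds differ, peaks are compared below by the percentile of their fold within their own list, where 100 is the highest fold, and a rank difference is the percentile after inactivation minus that in control.

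In the Hippo pathway, a kinase cascade phosphorylates YAP and TAZ and holds them outside the nucleus. When the cascade is quiet, YAP and TAZ enter the nucleus and bind TEAD proteins, which recognize a short DNA sequence at target genes such as Ctgf and Cyr61. In the intestinal epithelium YAP is known above all for its part in regeneration after injury and in the early growth of organoids.

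The lists held 90445 peaks in control and 71282 after inactivation. The background level solved from fold and p was 12.1 reads in control and 7.35 in the Taf4-inactivated library, an estimated depth ratio of 1.65. A deeper library can yield more and wider peaks, and the part of depth in the differences below was not tested. Promoter peaks were found at 8 of 9 epithelial marker genes in control and at 9 of 9 after inactivation. They were found at 3 and 4 of 5 fibroblast markers, 1 and 1 of 5 immune markers and 2 and 1 of 5 endothelial markers. Over all coding genes the share was 68.4% in control and 65.6% after inactivation. Of the epithelial markers, Krt20 had no peak in control, and Cdx1 stood lowest in both lists (percentile 9.74 in control and 0.679 after inactivation). The fibroblast markers with a peak in both lists were Col1a1 (percentile 10.7 in control and 18.1 after inactivation), Col1a2 (52.7 and 30.0) and Pdgfra (74.3 and 33.3), Thy1 had one after inactivation alone, and Dcn had none. Itgam was the immune marker with a peak (59.3 and 29.4), Kdr was the endothelial marker with a peak in both lists (93.1 and 35.9), and Pecam1 had one in control alone. Whether cells of other kinds contributed to either library was not tested. The targeted gene, annotated as Taf4a, had a promoter peak at percentile 74.7 in control and 58.7 after inactivation, which does not report whether its floxed exons were present.

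All 8 genes had a promoter peak in both lists. Over all coding genes the share was 68.4% in control, 65.6% after inactivation and 62.7% in both lists, so a promoter peak at every member is read against a background in which most genes have one. Of the 8 strongest promoter peaks, 5 ranked lower and 3 ranked higher after inactivation, with a median rank difference of -6.23. The 14014 coding genes with a promoter peak in both lists had a median of -2.77, with quartiles of -10.6 and 2.36, and 34.2% of them ranked higher. Differences of at least 20 points, a size chosen after the values were seen, were found at 4 members. Those were Tead3 and Cyr61 upward, against 7.85% of all coding genes, and Tead2 and Ctgf downward, against 12.3%. When the lists were cut to a −log10 q of 2 or more, 7 members kept a promoter peak in both lists, and Tead2 did not. Of the 22367 coding genes, 12447 kept one in both lists. The median of the 7 members was then 4.88, beside -1.26 for those coding genes. At 5 or more, Yap1, Tead1 and Tead4 were left, beside 7615 of the 22367 coding genes. The median of these members was 16.4, beside 6.48 for those coding genes.

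**Figure D1:**
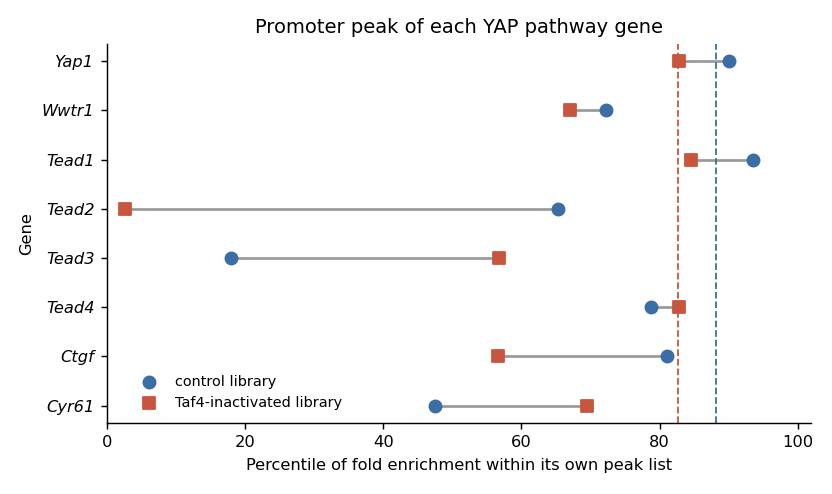
Percentile of the strongest promoter peak of each gene within its own peak list (x axis), for control (blue circles) and Taf4-inactivated enteroids (red squares), 1 library each; dashed lines mark the medians of all coding genes, 88.2 in control and 82.6 after inactivation. Tead2 and Ctgf lie to the left after inactivation and Tead3 and Cyr61 to the right, while Yap1, Wwtr1, Tead1 and Tead4 stay within 10 points.

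The promoter sequences below are shown because Cyr61 is a target gene, where TEAD proteins act, and because Tead2 showed the largest rank difference of the 8. Each is the 250 bases before the first annotated start site, written 5′ to 3′ on the strand of the gene, from the mm9 reference. Capitals mark the TEAD recognition letters GGAATG, read as CATTCC where they lie on the other strand.
Cyr61, chr3:145312950-145313199, minus strand: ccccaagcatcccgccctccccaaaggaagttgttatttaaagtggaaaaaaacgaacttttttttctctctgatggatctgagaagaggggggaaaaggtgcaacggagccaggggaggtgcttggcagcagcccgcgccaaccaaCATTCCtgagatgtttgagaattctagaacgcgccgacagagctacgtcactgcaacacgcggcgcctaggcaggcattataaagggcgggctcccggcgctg
Tead2, chr7:52470873-52471122, plus strand: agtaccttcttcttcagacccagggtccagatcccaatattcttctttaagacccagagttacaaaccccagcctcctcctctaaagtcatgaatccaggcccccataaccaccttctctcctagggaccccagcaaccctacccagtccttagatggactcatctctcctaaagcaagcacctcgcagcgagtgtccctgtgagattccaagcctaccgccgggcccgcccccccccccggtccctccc

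The Cyr61 promoter held 1 match, whose nearest base lay 98 bp before the start. Matches were also found at Yap1 (136 bp), Wwtr1 (131 bp), Tead1 (191 bp) and Tead3 (177 bp). None was found in the windows of Tead2 and Tead4. At least 1 match was present in 11.4% of the promoters of all coding genes. The AP-1 letters TGANTCA, on either strand, were in none of the windows named here and in 6.0% of all. A match describes letters in the reference, and no match says only that these letters are not in this window.

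The coactivators come first. Yap1 (ENSMUSG00000053110.7, chromosome 9, 7931999 to 8004596, minus strand) encodes YAP, the main effector of the pathway. Its promoter peak covered the first start site, spanned 8003367 to 8004902 in control and 8003359 to 8005017 after inactivation, and had folds of 2.58 and 3.27. The same open promoter was thus found in both libraries with nearly the same edges. It stood at percentile 90.1 in control and 82.8 after inactivation, a rank difference of -7.22, and 33.6% of coding genes ranked at least as far downward. Among peaks whose −log10 q was 5 or more the difference was 16.4.

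Around Yap1 lay 8 distal peaks in control and 7 after inactivation. Of these, 5 in each list had a partner, a peak of the other list that overlaps by at least 1 bp. Over all coding genes 51.2% of distal peaks in control and 64.2% after inactivation had one, the background for each gene below. The strongest Yap1 distal peak lay in an intron and spanned 7968060 to 7968361 in control, at fold 2.74 and percentile 93.1. After inactivation it spanned 7967979 to 7968358, at fold 3.52 and percentile 87.6. This intron peak was the distal member peak in the top 10% of a list that held the HNF4 letters CAAAGTCCA, the recognition sequence of a factor of the gut epithelium. The stretch is printed from the forward strand, with the match in capitals.
Yap1 intron, chr9:7968060-7968359: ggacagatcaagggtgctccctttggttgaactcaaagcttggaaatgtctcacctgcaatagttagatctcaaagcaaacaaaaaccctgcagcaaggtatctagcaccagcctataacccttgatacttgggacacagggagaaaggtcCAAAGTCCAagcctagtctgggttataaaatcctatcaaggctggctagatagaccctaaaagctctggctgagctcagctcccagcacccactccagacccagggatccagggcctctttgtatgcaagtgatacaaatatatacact

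The shared peak ending at 7929929 in control stood at percentile 69.8 there and at 10.3 after inactivation, the widest difference at this gene. One further shared peak lay at the start site of the neighbouring coding gene 9230110C19Rik. The peaks without a partner ranked low, the highest at percentile 46.6 in an intron after inactivation. The stronger Yap1 peaks were thus present in both lists.

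Wwtr1 (ENSMUSG00000027803.8, chromosome 3, 57259571 to 57379832, minus strand) encodes TAZ, the close relative of YAP. Its promoter peak spanned 57378621 to 57380617 in control and 57379068 to 57380193 after inactivation, with folds of 2.20 and 2.74 and percentiles of 72.3 and 67.0. The rank difference of -5.24 was matched or exceeded downward by 40.1% of coding genes. It was 4.88 among peaks whose −log10 q was 2 or more, and 2.22 with lists of equal length.

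Wwtr1 had few distal peaks. Of 4 in control and 5 after inactivation, 1 in each had a partner, beside 51.2% and 64.2% of the distal peaks of all coding genes. It lay at the start site of Tm4sf4, at percentile 44.5 in control and 79.2 after inactivation. A control peak downstream of the gene, at 57250745 to 57250951 with percentile 81.3, had no partner. A peak after inactivation, at 57239260 to 57239641 with percentile 83.5, had none either, and it was the single unpartnered peak of the members in the top 25% of that list. Neither held a TEAD or AP-1 match. Whether such peaks would recur in a second library could not be asked here.

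The TEAD genes encode the DNA-binding partners of YAP and TAZ. Tead1 (ENSMUSG00000055320.8, chromosome 7, 119822832 to 120050319, plus strand) had the member promoter peak of highest rank in both lists. At the first start site it spanned 119822202 to 119823643 in control and 119822401 to 119823648 after inactivation, with folds of 2.77 and 3.35 and percentiles of 93.6 and 84.5. This peak also lay at the start of 2310014F06Rik, annotated as a long non-coding RNA gene. The rank difference was -9.04, with 28.5% of coding genes at least as far downward, and it was 0.257 among peaks whose −log10 q was 5 or more. At an internal start, a second promoter peak at 119834203 to 119835231 was called in control alone, at fold 1.90 and percentile 21.4.

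Tead1 also held the most distal peaks, 29 in control and 20 after inactivation, and 20 and 17 of them lay in its introns. No other gene annotated as coding lay within 50 kb of it, but Rassf10, a pseudogene in this annotation, did, and 1 shared peak lay at its start. Of the distal peaks, 13 in each list had a partner, and 3 of the 13 shared peaks ranked higher and 10 lower after inactivation, with a median rank difference of -24.7. Over the shared distal peaks of all coding genes 46.9% ranked higher, with a median of -0.854. The largest difference was at a shared peak that spanned 119843275 to 119843992 in control, at percentile 81.0, and stood at percentile 11.4 after inactivation.

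Among the Tead1 intron peaks the strongest were found in both lists at similar ranks. That at 119968849 to 119970240 in control had a fold of 2.84 and percentile 94.4, and at 119969120 to 119970247 after inactivation it had a fold of 4.30 and percentile 96.1. It held 3 TEAD matches in each list. Another spanned 119931052 to 119932238 in control at percentile 94.3 and 119931794 to 119932419 after inactivation at percentile 94.5, with 1 TEAD match in each. A further one, at 119967236 to 119967571 in control, held an AP-1 match and stood at percentile 92.9 there and at 86.8 after inactivation. The central stretch of the first of these peaks after inactivation is printed from the forward strand, because it lies in a TEAD gene and carries 2 of the TEAD matches, in capitals.
Tead1 intron, chr7:119969533-119969832: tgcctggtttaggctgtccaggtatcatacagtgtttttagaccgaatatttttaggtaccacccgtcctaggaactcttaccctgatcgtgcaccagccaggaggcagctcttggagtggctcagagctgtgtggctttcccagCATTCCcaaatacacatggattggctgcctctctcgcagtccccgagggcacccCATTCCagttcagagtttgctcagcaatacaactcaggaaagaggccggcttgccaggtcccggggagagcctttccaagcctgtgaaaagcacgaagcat

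Beyond the 3′ end of Tead1, a control peak at 120072206 to 120072591 with percentile 79.4 had no partner. At this gene 16 of the 29 control peaks and 7 of the 20 after inactivation were unpartnered. Over all coding genes 51.2% of distal peaks in control and 64.2% after inactivation had a partner.

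Tead2 (ENSMUSG00000030796.8, chromosome 7, 52471123 to 52489005, plus strand) showed the widest promoter difference, and it did not compare the same stretch of DNA. In control the stronger peak lay over a later start, at 52472443 to 52472860, with a fold of 2.13 and percentile 65.3. After inactivation no peak was called there, and the promoter peak lay at the first start, at 52471188 to 52471665, with a fold of 1.97 and percentile 2.63. The rank difference of -62.6 was matched or exceeded downward by 0.378% of coding genes. Within 1 kb of the first start control also had a weak peak, at 52471369 to 52471581 with fold 1.75 and percentile 3.89. The overlapping pair, a comparison added after seeing the data, differed by -1.26. The peak over the later start was the one without a counterpart after inactivation.

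Tead2 lies among 6 other coding genes within 50 kb, and 5 of its 13 distal peaks in control and 3 of its 10 after inactivation lay at start sites of other genes. In each list 2 had a partner, the lowest share among the TEAD genes, beside 51.2% and 64.2% over all coding genes. Both shared Tead2 peaks ranked higher after inactivation, at percentiles of 18.7 and 76.2 for one and 38.9 and 72.6 for the other.

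Tead3 (ENSMUSG00000002249.10, chromosome 17, 28468616 to 28487750, minus strand) ranked higher after inactivation. Its promoter peak spanned 28486411 to 28488967 in control, 2557 bp wide with a fold of 1.88 and percentile 18.0. After inactivation it spanned 28486952 to 28488171, 1220 bp wide with a fold of 2.54 and percentile 56.8. The rank difference was 38.7, and 2.89% of coding genes ranked at least as far upward. Ranked by −log10 p the difference was -1.58, so its direction depended on the measure, and the control peak was the wider one.

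The distal peaks of Tead3 were 17 in control and 10 after inactivation, with 9 in each list partnered. Over all coding genes 51.2% and 64.2% were partnered. There were 5 other coding genes within 50 kb. The strongest distal peak after inactivation, at 28450147 to 28450826 with percentile 90.7 and with a control partner at percentile 88.3, lay at the start site of Fance, a gene of the Fanconi anaemia DNA repair pathway. The widest difference was at a shared peak at 28495958 to 28496181 in control, with percentiles of 73.9 and 3.34.

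Tead4 (ENSMUSG00000030353.9, chromosome 6, 128174306 to 128250841, minus strand) had the same 2 promoters in both lists. The peak at its first start spanned 128250016 to 128250985 in control and 128250193 to 128251073 after inactivation, with folds of 2.28 and 3.26 and percentiles of 78.8 and 82.8. At an internal start the peak spanned 128224982 to 128226131 in control, with percentile 18.9, and 128225542 to 128225808 after inactivation, with percentile 62.4. The stronger promoter differed by 3.98, and 21.4% of coding genes ranked at least as far upward. Under the 7 alternatives that gave a value the difference lay between 1.53 and 34.3, the highest among peaks whose −log10 q was 5 or more.

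Of 17 distal peaks of Tead4 in control and 11 after inactivation, 8 in each list had a partner. Over all coding genes 51.2% and 64.2% had one. The strongest distal peak of all members in control lay near Tead4, at 128150130 to 128151398 with percentile 99.3, at the start site of Gm10010. After inactivation it spanned 128150117 to 128151178 with percentile 97.6. Upstream of the gene a control peak at 128280938 to 128281268 with percentile 88.9 had no partner, the highest rank of any unpartnered member peak.

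The target genes encode secreted matricellular proteins that are widely used as readouts of YAP activity, and their promoters differed in opposite directions. Ctgf (ENSMUSG00000019997.4, chromosome 10, 24315248 to 24318489, plus strand) had a promoter peak at 24315291 to 24316792 in control, with a fold of 2.32 and percentile 81.1. After inactivation it spanned 24315240 to 24316699, with a fold of 2.54 and percentile 56.6. The rank difference was -24.5, and 9.30% of coding genes ranked at least as far downward. It lay between -29.4 and -19.4 under the 6 alternatives that gave a value. The peak also lay at a start of Gm15270, a long non-coding RNA gene.

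Cyr61 (ENSMUSG00000028195.3, chromosome 3, 145309935 to 145312949, minus strand) had a promoter peak at 145312210 to 145313060 in control, with a fold of 2.02 and percentile 47.4. After inactivation it spanned 145312226 to 145313140, with a fold of 2.80 and percentile 69.5. The rank difference was 22.1, and 7.06% of coding genes ranked at least as far upward. Under the 6 alternatives that gave a value it lay between 13.4 and 39.9. The peak also lay at a start of the long non-coding RNA gene Gm17501.

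**Figure D2:**
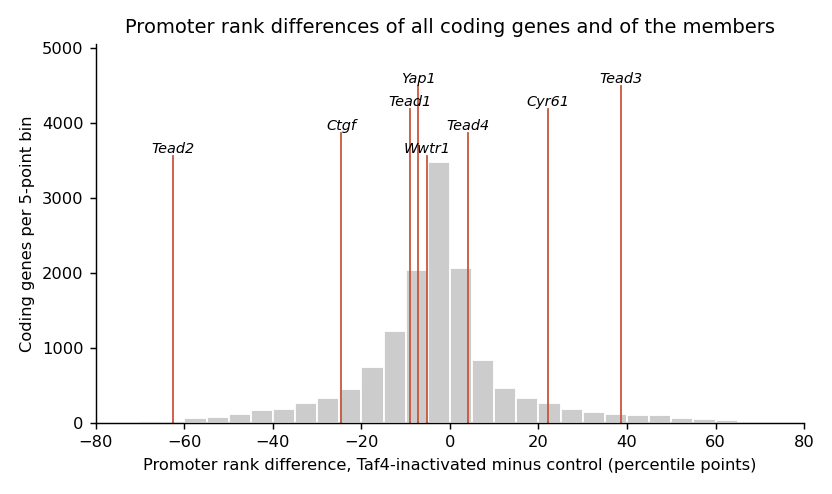
Rank difference of the strongest promoter peak, Taf4-inactivated minus control (x axis, percentile points), for the 14014 coding genes with a promoter peak in both lists (grey bars, number of genes per 5-point bin) with the 8 members as red lines. Ctgf and Cyr61 lie on opposite sides of the bulk of the genes, and Yap1, Wwtr1, Tead1 and Tead4 lie within it.

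The distal peaks of Ctgf went the other way from its promoter. All 3 control peaks had a partner and all 3 ranked higher after inactivation, while 2 further peaks were called after inactivation alone. The strongest lay 33458 bp downstream of the first start, at 24348706 to 24349300 in control with a fold of 2.72 and percentile 92.8. After inactivation it spanned 24348824 to 24349272 with a fold of 4.75 and percentile 98.2, the highest rank of any distal peak of the members in that list. It held 2 AP-1 matches and no TEAD match. The central stretch is printed from the forward strand with its AP-1 match in capitals.
Ctgf distal, chr10:24348898-24349197: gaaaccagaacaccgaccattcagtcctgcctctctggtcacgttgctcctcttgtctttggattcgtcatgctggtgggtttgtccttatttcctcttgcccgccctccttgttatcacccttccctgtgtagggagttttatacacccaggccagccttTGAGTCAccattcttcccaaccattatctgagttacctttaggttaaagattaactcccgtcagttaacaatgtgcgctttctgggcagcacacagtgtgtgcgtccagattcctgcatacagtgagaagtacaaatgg

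The other shared Ctgf peaks lay 39880 and 43405 bp downstream. Their percentiles were 53.1 in control and 73.2 after inactivation at the first, and 24.4 and 59.3 at the second. The peaks called after inactivation alone lay 28914 bp upstream, at percentile 39.1, and 8375 bp downstream, at percentile 73.6, and each held 1 TEAD match. No other member with more than 2 shared distal peaks had all of them rank higher. Both shared peaks of Tead2 and the 1 of Wwtr1 ranked higher too.

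Cyr61 also had more distal peaks after inactivation, 6 against 4 in control, and 2 in each list had a partner. The strongest lay 15295 bp downstream, at 145295955 to 145297654 in control with percentile 84.7 and at 145295129 to 145297685 after inactivation with percentile 78.1. It held 1 TEAD and 1 AP-1 match in each list. The peak 3143 bp upstream stood at percentiles of 45.4 and 51.3. The 4 peaks found after inactivation alone stood between percentiles 47.8 and 58.4, and the one 25958 bp downstream held 3 TEAD matches.

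**Figure D3:**
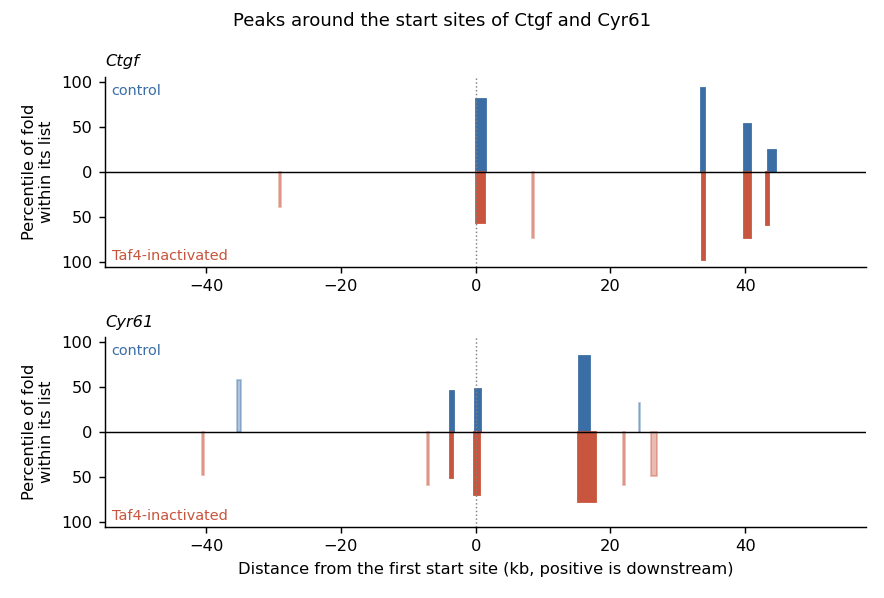
Peaks around Ctgf (top) and Cyr61 (bottom) by distance from the first start site (x axis, kb); bar width is the peak width and bar height the percentile of fold within its list, upward for control (blue) and downward for Taf4-inactivated enteroids (red), pale where the other list has no overlapping peak. At Ctgf the promoter bar is shorter after inactivation, 56.6 against 81.1, while the 3 downstream bars are taller, and at Cyr61 the promoter bar is taller.

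The coding genes whose pair of promoter percentiles lay nearest to that of Ctgf, over the 2 libraries, were Esyt3, Fam135b and 1600021P15Rik, at distances of 0.243, 0.251 and 0.404 points. Within 5 points lay 165 genes.

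Across the 8 genes, distal peaks were more numerous in control at 5 genes and after inactivation at 3, namely Wwtr1, Ctgf and Cyr61. The median coding gene had 8 distal peaks in control and 6 after inactivation. The share of coding genes with more distal peaks after inactivation is not given here. In control 43 of the 95 had a partner (45.3%, exact 95% Clopper-Pearson interval 35.0 to 55.8, which covers counting error only), beside 51.2% over all coding genes. After inactivation 43 of the 74 had one (58.1%, 46.1 to 69.5), beside 64.2%. Both intervals hold the share of all coding genes. Among the 43 shared distal peaks 20 ranked higher and 23 lower after inactivation, with a median of -1.66. Over all coding genes 46.9% ranked higher, with a median of -0.854. Among peaks whose −log10 q was 5 or more the members had 9 distal peaks in control and 17 after inactivation, so the order of the totals depended on the threshold. The distal counts of all coding genes at that threshold are not given here, so whether this was particular to the members was not tested. The median promoter rank difference of all coding genes was -2.77 in the full lists and 6.48 at that threshold.

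**Figure D4:**
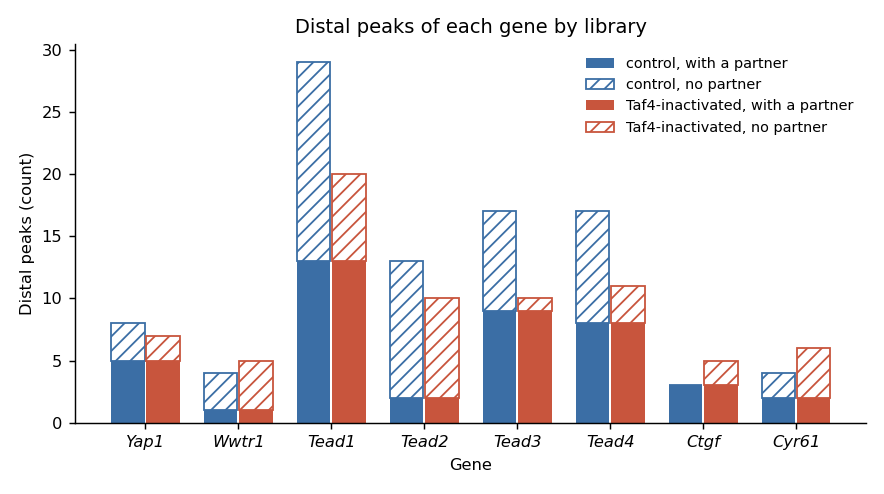
Number of distal peaks (y axis) of each gene in control (blue, left bar) and Taf4-inactivated enteroids (red, right bar), 1 library each, filled where the other list has an overlapping peak and hatched where it has none. Tead1 has 29 and 20 peaks, while Wwtr1, Ctgf and Cyr61 have more after inactivation.

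The unpartnered peaks, 52 in control and 31 after inactivation, were narrower and ranked lower. Their median width was 490 bp in control and 327 bp after inactivation, against 893 and 584 bp for those with a partner, and their median percentiles were 36.2 and 39.1 against 53.1 and 55.2. All 6 distal peaks in the top 10% of the control list and all 5 in that of the Taf4-inactivated list had a partner, as did 98% and 95.1% of such peaks over all coding genes. In the top 25%, 3 of 14 were without a partner in control and 1 of 12 after inactivation, beside 15.8% and 12.2%.

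The TEAD letters GGAATG, on either strand, were searched in the distal peaks as the sequence by which these factors recognize DNA. At least 1 match was found in 32 of 95 peaks in control (33.7%, 24.3 to 44.1) and in 30 of 74 after inactivation (40.5%, 29.3 to 52.6). The distal peaks of all coding genes, counted once for each gene they lie near, gave 30.9% and 28.7%. Equally long stretches taken 2000 bp outside the edges of the members' peaks gave 28.4% and 27.7%. Per kb, the peaks held 0.578 matches in control and 0.825 after inactivation, the stretches beside them 0.526 and 0.511, and the distal peaks of all coding genes 0.544 and 0.541. With a 100 kb flank the shares were 31.6% in control and 32.5% after inactivation, and among peaks whose −log10 q was 5 or more they were 44.4% and 35.3%, so the gap between the lists depended on these choices. In the 300 bp centred on each peak the shares were 9.47% in control and 20.3% after inactivation, beside 14.8% and 14.7% over all coding genes. For peaks narrower than 300 bp this stretch reached beyond the peak. With peaks at start sites of other genes left out the shares were 36.25% in control and 45.3% after inactivation. All coding genes then gave 29.5% and 27.1%. The whole-peak interval in control held the share of all coding genes, while that after inactivation began just above it. The intervals of the whole-peak shares overlapped between the lists, and many of the peaks share a locus.

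**Figure D5:**
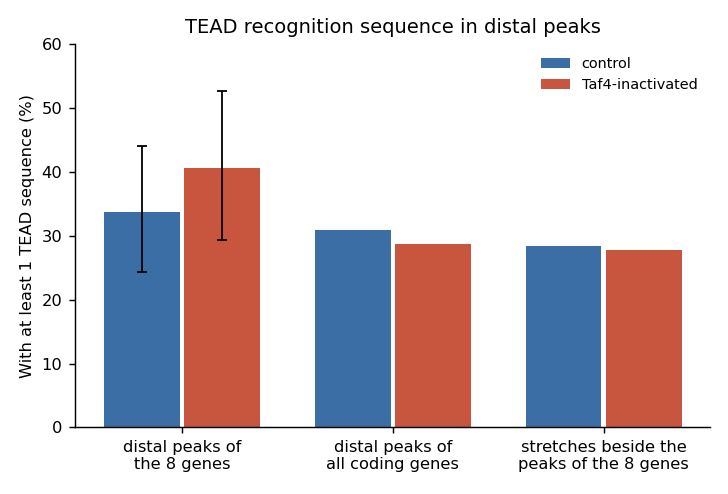
Share (y axis, %) with at least 1 TEAD sequence among the distal peaks of the 8 genes, those of all coding genes, and stretches of equal length beside the members' peaks, for control (blue) and Taf4-inactivated enteroids (red), 1 library each; error bars are exact 95% intervals for counting error. The members' bars stand at 33.7% and 40.5%, and their intervals overlap. The interval in control holds the share of all coding genes, and that after inactivation begins just above it.

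The AP-1 letters were in 17 of the 95 distal peaks in control (17.9%, 10.8 to 27.1) and in 21 of the 74 after inactivation (28.4%, 18.5 to 40.1), beside 19.2% and 21.5% over all coding genes. The HNF4 letters were in 3 and 4 peaks (3.16% and 5.41%), beside 1.71% and 2.68%. Both intervals of the AP-1 shares held the share of all coding genes.

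The rest of the pathway was read from lists of 41 further genes. A promoter peak was present at 36 of them in each list, and the same 36 had one in both. Over all coding genes the share was 68.4% in control, 65.6% after inactivation and 62.7% in both lists. The 5 without one in either list were Fat1, an atypical cadherin upstream of the kinases, and the YAP target genes Ankrd1, Ccdc80, Myof and Rbms3. Of the 36, 8 ranked higher and 28 lower after inactivation, with a median of -7.32 beside -2.77 for all coding genes, of which 34.2% ranked higher. Differences of at least 20 points were found upward at 2 and downward at 8 of the 36, beside 7.85% and 12.3% of all coding genes.

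By role, the kinase cassette (Stk3, Stk4, Sav1, Lats1, Lats2, Mob1a and Mob1b) had strong promoter peaks at all 7 genes, with median percentiles of 97.1 and 94.5. Of these 2 ranked higher and 5 lower, with a median of -3.83 and none differing by 20 points. Their control percentiles ran from 88.1 to 98.7, so none could have ranked higher by 20 points. Upstream regulators had a peak at 9 of 10 genes, 2 higher and 7 lower, with a median of -7.20. Proteins that bind or regulate YAP and TEAD had one at 7 of 7 genes, 3 higher and 4 lower, with a median of -7.43. The further YAP target genes had one at 13 of 17, beside 62.7% of all coding genes with one in both lists. Of the 13, 1 ranked higher and 12 lower, with a median of -18.9. In that list 6 of the 13 ranked lower by at least 20 points and 1 ranked higher by as much, beside the same 12.3% and 7.85%. The non-epithelial markers with a promoter peak in both lists also ranked lower, except Col1a1. The downward differences ran from -57.1 at Kdr to -22.7 at Col1a2, and at Itgam the compared peaks did not overlap. Of the epithelial markers with a peak in both lists, 3 ranked higher and 5 lower. Their median was -6.99, and none differed by 20 points. What part cells of any kind had in this result was not tested. Ctgf, which is not in the list of further YAP target genes, stood with the lower genes of that list and Cyr61 did not.

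Downward differences were widest at Igfbp3, which encodes an insulin-like growth factor binding protein (percentile 79.5 in control and 24.0 after inactivation, -55.5), at Arhgef17, a guanine nucleotide exchange factor gene (75.9 and 27.5, -48.4), and at Dchs1, a protocadherin gene that acts with Fat4 (88.7 and 48.2, -40.4). Upward, they were Amotl1, which encodes a YAP-binding angiomotin (26.2 and 51.0, 24.9), Nuak2, a kinase gene (75.8 and 97.1, 21.3), and Limd1, which encodes a LIM protein that binds LATS kinases (56.9 and 66.1, 9.17). At Arhgef17 and Nuak2 the strongest promoter peaks of the 2 lists did not overlap, so different start sites were compared there.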

How the data were processed

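Broad peaks from ATAC-seq of enteroids were analysed in 1 control library and 1 Taf4-inactivated library, grouped by the genotype in the labels. The authors converted base calls with bcl2fastq 2.17.1.14, mapped reads to mm9 with Bowtie 1.0.0, keeping uniquely mapped ones, and called peaks per library with MACS2 2.1.1, as the submitters' processing notes and the study's methods give them. Reads were extended to 200 bp without a model. The deposited score is a whole number made from −log10 q and was not used for ranking. The deposited fold enrichment is relative to the same library's background. The deposited −log10 p and −log10 q are averages over a peak, and −log10 q began at 1.01 in control and at 1.00 after inactivation. Treatment of duplicate and mitochondrial reads is not given in the sources used here.

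Positions were made 1-based and joined to the GENCODE annotation and sequence of NCBIM37 (mm9) with Python 3.11.15, numpy 2.4.6, pandas 2.3.3, scipy 1.17.1, pysam 0.24.0 and samtools 1.23.1. Figures were drawn with matplotlib 3.10.9. Shared peaks overlapped by at least 1 bp, and a distal peak was paired with the peak of longest overlap. A second record named Tead1, a processed transcript, was not used. Relative depth was solved from fold and p as the 5th percentile of background over the narrowest 10% of peaks. The steps were tested on simulated data with known answers. For depth, the simulated p came from the same formula that was solved, without averaging over a peak. That step therefore does not test the depth estimate for the averaged values used here.

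The members, the lists of pathway and marker genes and the rule for named items were chosen with earlier results of these data known. Named were all promoter peaks of the members, their distal peaks in the top 10% of a list or in the top 25% without a partner, pathway genes without a promoter peak and the 3 widest differences each way, and the 3 genes most like Ctgf. The genes most like Cyr61 and 1 promoter sequence are not reported here. Other distal peaks are given as the rest of a locus and were chosen after their values were seen. Alternatives changed the promoter distance, q threshold, flank, overlap, ranking and stretch searched. Read-level signal was not used here. With 1 library per genotype no test was made.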

Additional observations from a re-analysis of the deposited data

How the results depend on the processing

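Each genotype had 1 library, so none could be left out. No paired analysis was possible because neither genotype had a second library. Of 75 summary values recomputed under an alternative, 45 kept their direction and stayed within a tolerance, 27 moved further and 3 turned. The tolerance was 1.5 times for counts, the exact 95% interval for shares and 1 point for ranks. Of 49 values for single genes, 15 stayed within 1 point, 29 moved further and 5 turned. The causes were not tested.

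With −log10 q at 2 or more, promoter peaks were left at 8 members in control, 7 after inactivation and 7 in both. Of the 22367 coding genes, 12447 had one in both. The members had 45 distal peaks in control and 42 after inactivation, a difference of 3. The median promoter rank difference of the 7 was 4.88 (that of Wwtr1 also 4.88), beside -1.26 for all coding genes. With −log10 q at 5 or more, promoter peaks were left at 3 members in control, 5 after inactivation and 3 in both. They were left at 22 pathway genes in control and 20 in both. Of the 22367 coding genes, 7615 had one in both. The members then had 9 and 17 distal peaks, a difference of -8, and the distal counts of all coding genes are not given here. In control 100% of the members' distal peaks had a partner and 44.4% a TEAD sequence (35.3% after inactivation). The median rank difference was 16.4 (Yap1 16.4, Tead1 0.257), beside 6.48 for all coding genes. A 10 kb flank gave 48 and 36 distal peaks, a difference of 12, and a 100 kb flank 158 and 120, a difference of 38. Requiring an overlap of 50% of both peaks left 23.2% and 29.7% with a partner. Ranking by −log10 p gave a median of -4.16, with Tead3 at -1.58, and lists of equal length gave -4.55, with Wwtr1 at 2.22. The 300 bp centred on a peak, which reach beyond narrower peaks, held a TEAD sequence for 9.47% and 20.3% of peaks. Requiring a further base left 17.9% and 21.6%. Comparing promoter peaks with the longest overlap, added after seeing the data, gave a median of -3.25.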
